A study of Mus musculus with 12 samples.

Results

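Small nucleolar RNA (snoRNA) genes were examined in 2 kinds of mouse spleen dendritic cell with and without the receptor FLT3 or its ligand. Members were the genes whose symbol starts with Snord, Snora or Scarna, read from probe sets annotated to 1 symbol. They numbered 54 of the 19938 genes with a value: 31 box C/D genes (Snord), 20 H/ACA genes (Snora) and 3 genes of Cajal body RNAs (Scarna). The deposited intensities were taken to log2, and the 25% of genes with the lowest mean over all arrays was left out. That filter lay at a mean log2 intensity of 4.78, an intensity of 27.5, and left 14953 genes, among them 51 members (29 box C/D, 19 H/ACA and 3 Scarna). Snora2b, Snord52 and Snord118 fell under it. The members nearest to the filter were Snora20 (mean log2 4.85) and Snord58b (4.87) just above it and Snord118 (4.25) just under it.

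The groups were Flt3 KO cDC1, Flt3L KO cDC1, WT cDC1, Flt3 KO cDC2, Flt3L KO cDC2 and WT cDC2, each with 2 GeneChip arrays labelled as biological replicates, 12 arrays in all. The cells were sorted from spleens of untreated mice at steady state after digestion with collagenase and DNase. Flt3 KO mice lack the receptor and Flt3L KO mice lack its ligand; the labels name neither the allele nor a restriction to a tissue. The sources used here do not give strain, sex, age or the number of mice behind an array, and the spread between arrays may be in part technical. FLT3 is a receptor tyrosine kinase that drives the growth of dendritic cell progenitors. cDC1 and cDC2 are the main types of conventional dendritic cell; cDC1 are known for cross-presenting antigen to CD8 T cells and cDC2 for priming CD4 T cells.

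SnoRNAs are short RNAs of the nucleolus that base-pair with ribosomal RNA and direct its chemical modification. Box C/D RNAs carry the methyltransferase fibrillarin and guide methylation of ribose, and H/ACA RNAs carry the pseudouridine synthase dyskerin. A few act in cutting the ribosomal RNA precursor rather than in modifying it, and Scarna RNAs guide modification of spliceosomal RNAs in Cajal bodies. In mammals most snoRNAs are cut out of introns of a host gene after splicing, many of them genes of ribosomal proteins or noncoding RNAs whose exons are short-lived. The level of the mature RNA therefore depends on host transcription, splicing and the stability of the particle.

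By position in the RefSeq annotation, 21 members lay in genes of ribosomal proteins, 14 in noncoding genes, 18 in other protein-coding genes and 1, Snord118, in none. The annotated members were 45 to 275 bases long, with a median of 68 bases for box C/D and 125 bases for H/ACA. The 53 members with a host had 43 different hosts, and 24 of these hosts were themselves tested. The host promoters below are shown because they belong to the 9 hosts of the members called in cDC2 without the ligand, with Snhg1 added for Snord22, which differed most between the cell types, and because many snoRNA hosts begin with a run of pyrimidines that ties their translation to growth signals. Each stretch runs 5′ to 3′ on the strand of the gene, from 60 bases before to 20 bases after the annotated start (RefSeq, GRCm38.p6). Capitals mark an unbroken run of at least 5 bases that are each C or T and that overlaps the 5 bases on either side of the start; the opposite strand was not searched.
Gas5 first start, chr1:161034541-161034620, plus strand, host of Snord47: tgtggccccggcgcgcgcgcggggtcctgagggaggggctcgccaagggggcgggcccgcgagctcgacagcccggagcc
Gas5 second start, chr1:161035106-161035185, plus strand, host of Snord47: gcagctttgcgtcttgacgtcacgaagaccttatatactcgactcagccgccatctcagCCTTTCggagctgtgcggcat
Rbmx, chrX:57393017-57393096, minus strand, host of Snord61: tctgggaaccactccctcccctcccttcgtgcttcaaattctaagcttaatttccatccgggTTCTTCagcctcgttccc
Rplp2, chr7:141447591-141447670, plus strand, host of Snora52: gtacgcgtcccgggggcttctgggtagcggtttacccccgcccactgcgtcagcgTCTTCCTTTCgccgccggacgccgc
Tcp1, chr17:12916269-12916348, plus strand, host of Snora20: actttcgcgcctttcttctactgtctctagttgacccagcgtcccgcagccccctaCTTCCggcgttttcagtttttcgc
2410006H16Rik, chr11:62602817-62602896, plus strand, host of Snord49a and Snord49b: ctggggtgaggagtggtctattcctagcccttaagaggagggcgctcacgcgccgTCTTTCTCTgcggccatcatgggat
Rps3, chr7:99483690-99483769, minus strand, host of Snord15a and Snord15b: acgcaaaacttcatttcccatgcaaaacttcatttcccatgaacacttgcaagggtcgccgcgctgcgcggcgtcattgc
Ncl, chr1:86359436-86359515, minus strand, host of Snord82 and Snora75: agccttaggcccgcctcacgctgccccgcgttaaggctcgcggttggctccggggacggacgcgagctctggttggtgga
Rps12, chr10:23787190-23787269, minus strand, host of Snora33: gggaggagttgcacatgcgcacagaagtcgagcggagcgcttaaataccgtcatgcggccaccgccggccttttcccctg
Wdr43, chr17:71616155-71616234, plus strand, host of Snord53: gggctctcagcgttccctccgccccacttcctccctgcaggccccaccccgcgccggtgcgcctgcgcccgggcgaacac
Snhg1, chr19:8723427-8723506, plus strand, host of Snord22: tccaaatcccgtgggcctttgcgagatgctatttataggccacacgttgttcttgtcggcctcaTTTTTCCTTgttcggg
Promoter sequences were at hand for 33 of the 43 hosts. Such a run was found at any annotated start of 19 of these 33 hosts (57.6%). Counted by single promoter, 31.4% of all 32851 promoters held such a run. These 2 shares differ in unit, because a host with several starts counts once. Of the 9 hosts of called members 5 held such a run and 4 did not. Gas5 has 2 annotated starts, and its first start held none. A run wholly outside the window around the annotated start was not counted, such as the one near the end of the Rps12 stretch.

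The targeted gene checked the receptor knockout. Flt3 read 357 to 370 on Flt3 KO cDC1 arrays against 2265 to 2333 on WT cDC1 arrays, 6.32-fold lower, and 351 to 371 on Flt3 KO cDC2 arrays against 1742 to 1817 on WT cDC2 arrays, 4.93-fold lower. Flt3l read 119 to 129 on Flt3L KO cDC1 arrays against 113 to 114 on WT cDC1 arrays, and 109 to 118 on Flt3L KO cDC2 arrays against 145 to 149 on WT cDC2 arrays. By the limma test given below, Flt3l was called lower in Flt3L KO cDC2 (−0.37 ± 0.08, 1.3-fold, adjusted p = 0.0267). It was not called in Flt3L KO cDC1 (0.13 ± 0.08, adjusted p = 0.403). The labels do not say where its probes lie relative to the deleted part, and this gene is therefore no check of the ligand knockout. All 6 cDC1 markers (among them Xcr1 and Clec9a) were higher and all 6 cDC2 markers (among them Sirpa and Cd209a) were lower in WT cDC1 than in WT cDC2. Array medians lay between 59.0 and 63.0. The WT cDC1 replicates were the farthest apart: the SD of the difference between them was 0.21 log2 over all genes and 0.335 over the members, against 0.131 to 0.154 and 0.142 to 0.204 in the other groups. Tests were limma's moderated test on log2 intensities with Benjamini-Hochberg adjustment over all 14953 genes, and a gene was called at an adjusted p under 0.05. Because these are sorted populations read in bulk, a lower level in fewer cells and in every cell cannot be told apart, and neither can mature snoRNA and unspliced host RNA.

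Of the comparisons between genotypes, cDC2 without the ligand gave the most called members. In Flt3L KO cDC2 compared with WT cDC2, 9 of the 51 members fell and 1 rose, that is 17.6% and 1.96% of the members. Over all genes tested, 0.910% fell and 1.04% rose in this comparison. The members that fell were 6 box C/D genes (Snord15b, Snord61, Snord82, Snord47, Snord49a and Snord15a) and 3 H/ACA genes (Snora33, Snora52 and Snora20); Snord53 rose. The median log2 difference was −0.36 over box C/D members and −0.10 over H/ACA members, against 0.02 over all genes.

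Snord15b and Snord15a, 2 guide RNAs from introns of the ribosomal protein gene Rps3, were both lower. Snord15b read 163 and 160 on Flt3L KO cDC2 arrays against 312 and 291 on WT cDC2 arrays (log2 difference −0.90 ± 0.09 SE, adjusted p = 0.000242). Both ligand knockout arrays lay below all other arrays of the series for this gene, which read 195 to 312. Snord15a, the dimmer of the pair, read 62.8 and 52.5 on Flt3L KO cDC2 arrays against 84.7 and 73.6 on WT cDC2 arrays (−0.46 ± 0.10, adjusted p = 0.0421).

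Snord82, a box C/D RNA in an intron of Ncl, the gene of the nucleolar protein nucleolin, showed the largest fitted difference of the members called. It read 63.5 and 51.7 on Flt3L KO cDC2 arrays against 122 and 156 on WT cDC2 arrays (−1.26 ± 0.22, adjusted p = 0.0119, 2.40-fold lower). Snora75, an H/ACA RNA in another intron of Ncl, read 129 and 116 on Flt3L KO cDC2 arrays against 102 and 103 on WT cDC2 arrays (0.25 ± 0.13, adjusted p = 0.411), so the 2 RNAs of this host had fitted differences of opposite sign, of which the Snord82 fall alone passed.

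Snord61, in an intron of Rbmx, the gene of an RNA-binding protein of the spliceosome, read 219 and 237 on Flt3L KO cDC2 arrays against 392 and 416 on WT cDC2 arrays (−0.82 ± 0.13, adjusted p = 0.00787). Snord47, an RNA of the noncoding host Gas5, read 190 and 186 on Flt3L KO cDC2 arrays against 296 and 315 on WT cDC2 arrays (−0.70 ± 0.14, adjusted p = 0.0202). Snord49a, of the noncoding host 2410006H16Rik, read 136 and 123 on Flt3L KO cDC2 arrays against 205 and 221 on WT cDC2 arrays (−0.72 ± 0.15, adjusted p = 0.0341). In each of the 3 genes the groups did not overlap. For Snord61 and Snord49a the ligand knockout arrays of cDC2 lay within the range of the cDC1 arrays, and for Snord47 just above it. Snord49b, of the same host, read 212 and 188 on Flt3L KO cDC2 arrays against 287 and 249 on WT cDC2 arrays, also without overlap, but was not called in this comparison (adjusted p = 0.0526).

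Among H/ACA members, Snora33 in Rps12 read 268 and 263 on Flt3L KO cDC2 arrays against 380 and 377 on WT cDC2 arrays (−0.51 ± 0.09, adjusted p = 0.0135). Snora52, in the gene of the ribosomal stalk protein Rplp2, read 333 and 336 on Flt3L KO cDC2 arrays against 460 and 437 on WT cDC2 arrays (−0.42 ± 0.08, adjusted p = 0.0225). Snora20, in the chaperonin gene Tcp1, was dim, at 20.3 and 21.8 on Flt3L KO cDC2 arrays against 27.8 and 31.8 on WT cDC2 arrays (−0.50 ± 0.10, adjusted p = 0.0241). These H/ACA falls were between 1.34-fold and 1.43-fold, smaller than those of Snord82, Snord15b, Snord61, Snord49a and Snord47. The fall of the box C/D gene Snord15a (−0.46 log2) lay between those of Snora52 and Snora20.

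Snord53, in an intron of the ribosome biogenesis gene Wdr43, went the other way. It read 136 and 149 on Flt3L KO cDC2 arrays against 91.9 and 88.3 on WT cDC2 arrays (0.66 ± 0.13, adjusted p = 0.0186). It was also higher in cDC1 without the ligand, as given below, and read 92.3 and 127 on Flt3 KO cDC2 arrays, both between the values of the other cDC2 groups.

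**Figure D1:**
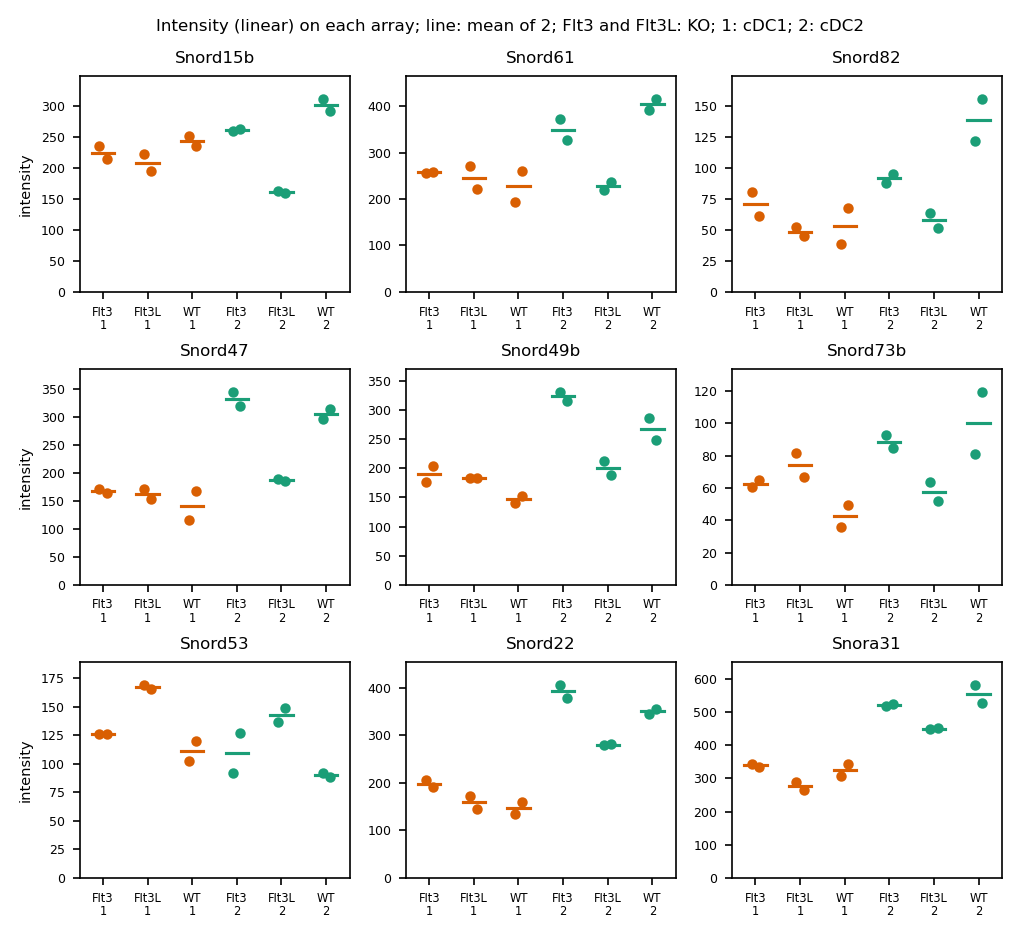
Linear intensity of 9 snoRNA genes on each of the 12 arrays, with Flt3 KO, Flt3L KO and WT groups of cDC1 (orange) and then cDC2 (green) along each x axis; points are arrays and lines the mean of 2. Snord15b, Snord61, Snord82, Snord47 and Snord49b are lower in Flt3L KO cDC2 than in WT cDC2, Snord53 is higher, and Snord22 and Snora31 are lower in cDC1 than in cDC2 of the same genotype.

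Called or not, the members mostly lay on the lower side, with 39 of the 51 below 0. With the called members included, 34 members had both Flt3L KO cDC2 arrays below both WT cDC2 arrays, against 21.4% of all genes. Among these were 23 box C/D and 10 H/ACA members. Another 4 members, the called Snord53 among them, had both arrays above, against 27.2% of all genes. Snord57, in an intron of Nop56, read 112 and 119 on Flt3L KO cDC2 arrays against 173 and 190 on WT cDC2 arrays (adjusted p = 0.0632). Snord14e, in the chaperone gene Hspa8, read 493 and 445 on Flt3L KO cDC2 arrays against 742 and 654 on WT cDC2 arrays (adjusted p = 0.0616); RNAs of the Snord14 family act in cutting out the small-subunit ribosomal RNA in yeast. Snord16a, the brightest member, read 1321 and 1426 on Flt3L KO cDC2 arrays against 1356 and 1378 on WT cDC2 arrays, where the groups overlapped.

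**Figure D2:**
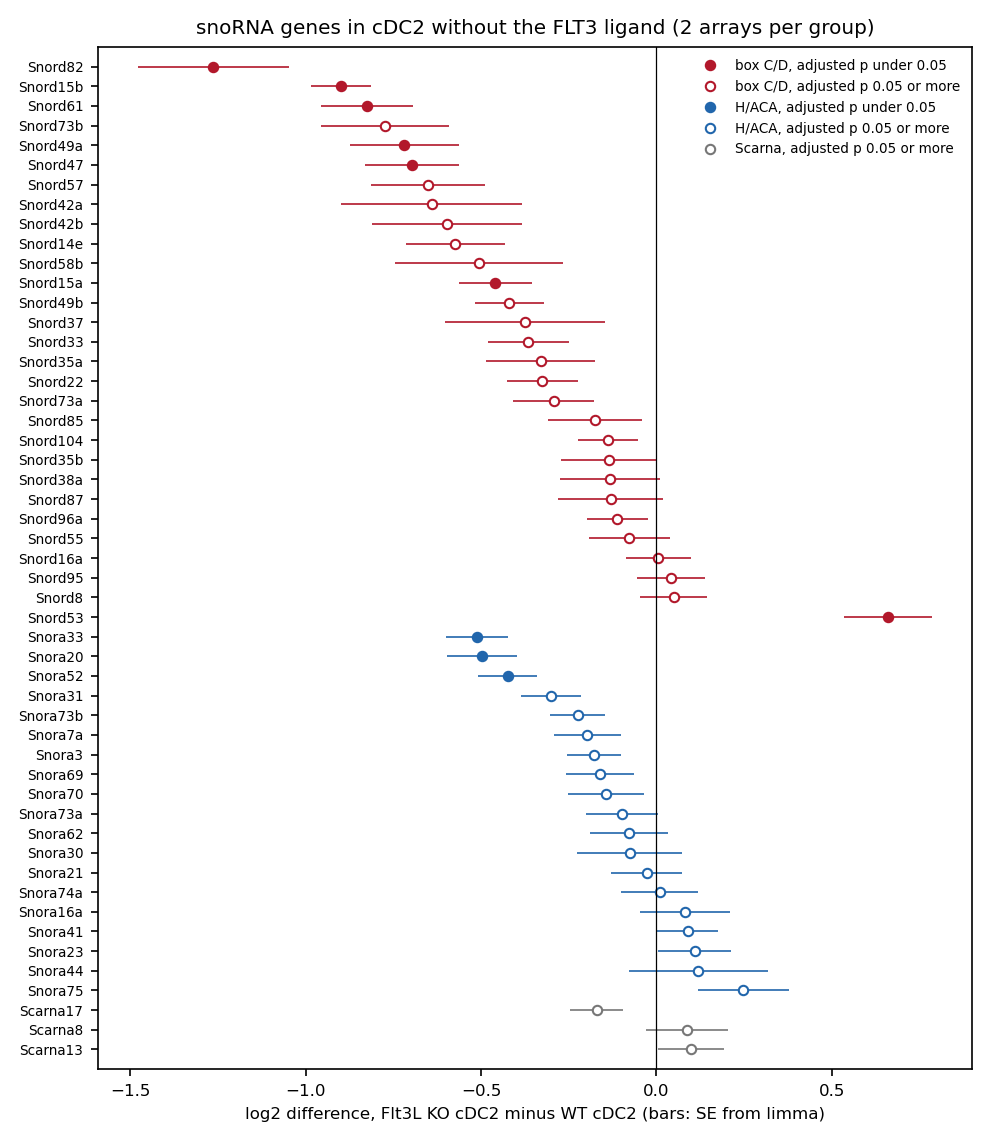
Fitted log2 difference, Flt3L KO cDC2 minus WT cDC2, of each of the 51 tested snoRNA genes, ordered within box C/D (red), H/ACA (blue) and Scarna (grey); bars are standard errors from limma and filled points have an adjusted p under 0.05. Of the 29 box C/D genes 25 lie below 0, as do 13 of the 19 H/ACA genes, and Snord53 alone is called above 0.

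By place in the genome, 4 of the 21 tested members in ribosomal protein genes fell in Flt3L KO cDC2 (median −0.29, with 20 below 0), as did 2 of the 13 in noncoding genes (median −0.14) and 3 of the 17 in other protein-coding genes (median −0.11), where Snord53 rose. The count of 10 called members rested on all 4 arrays compared. It was 3 without WT cDC2 replicate 1, 1 without WT cDC2 replicate 2 and 2 without either replicate of Flt3L KO cDC2, although all 10 members kept their direction each time. Markers of macrophages moved with this comparison: 5 of 8 rose in Flt3L KO cDC2 (C1qa, C1qb, C1qc, Hmox1 and Vcam1), Cd5l and Slc40a1 lay under the filter, and the summed intensity of the list was 1945 to 2339 on Flt3L KO cDC2 arrays against 722 to 753 on WT cDC2 arrays. In addition, 2 of 6 cDC2 markers (Cd209a and Clec4a4) fell and 1 of 6 cDC1 markers (Irf8) rose. The part of these cells or markers in the snoRNA result was not tested.

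The host genes were read beside these members. Of the 10 called members 9 had a tested host, and 0 of those hosts were called in limma's test. Over all 24 tested hosts 0 were called, where 1.95% of all genes were called in either direction, and 2 had an unadjusted p under 0.05. The largest host difference among the 9 was 0.24 in size, for Rplp2 (−0.24 ± 0.10, adjusted p = 0.313). Rps3, which holds Snord15a and Snord15b, differed by −0.01 ± 0.07, Gas5 by 0.04 ± 0.07, Ncl by −0.09 ± 0.10, Rbmx by −0.11 ± 0.12 and Wdr43 by 0.05 ± 0.09. Over the 28 pairs of member and tested host, the median difference was −0.34 for the members and −0.09 for the hosts.

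**Figure D3:**
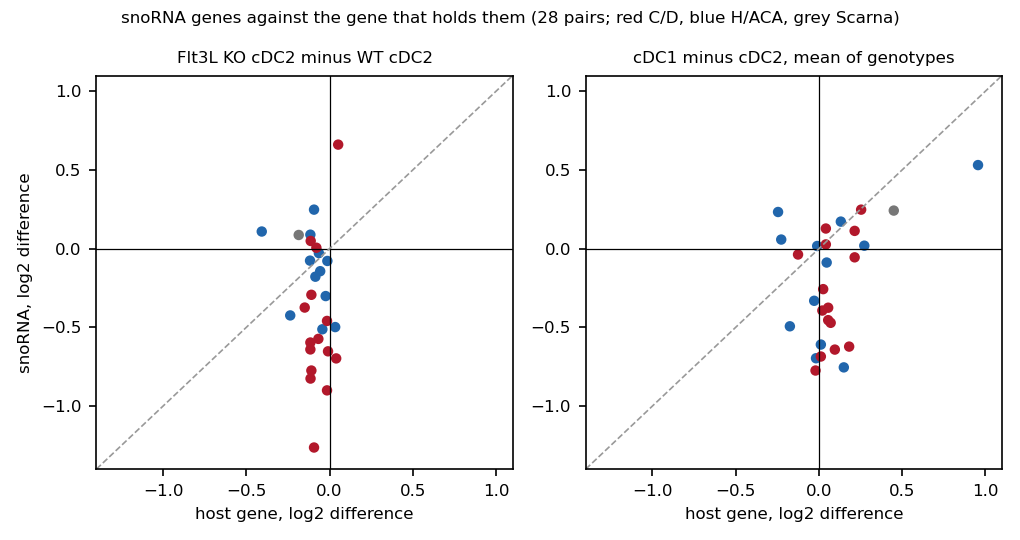
Fitted log2 difference of each snoRNA gene (y axis) against that of the gene that holds it (x axis) for the 28 pairs with both tested, in Flt3L KO cDC2 minus WT cDC2 (left) and in cDC1 minus cDC2 over the mean of genotypes (right); the dashed line marks equal differences. At left the pairs spread along the y axis, with host differences of the called members no larger than 0.24; at right Snora41 and its host Eef1b2 lie at upper right, at 0.53 and 0.96.

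In cDC1 fewer members were called without the ligand. Compared with WT cDC1, 2 of the 51 members (3.92%) rose in Flt3L KO cDC1 and 0 fell, while 0.776% of all genes rose. Snord53 read 169 and 165 on Flt3L KO cDC1 arrays against 102 and 119 on WT cDC1 arrays (0.60 ± 0.13, adjusted p = 0.0486). Scarna13, a Cajal body RNA of the noncoding host Snhg10, read 207 and 209 on Flt3L KO cDC1 arrays against 156 and 152 on WT cDC1 arrays (0.44 ± 0.09, adjusted p = 0.0491). Both groups were apart in each gene, and Scarna13 was highest there of all 6 groups.

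The next members did not pass. Snord73b, of the ribosomal protein gene Rps3a1, read 81.5 and 66.9 on Flt3L KO cDC1 arrays against 35.9 and 49.6 on WT cDC1 arrays (adjusted p = 0.0566). Snord95, of Rack1, read 220 and 208 on Flt3L KO cDC1 arrays against 145 and 172 on WT cDC1 arrays (adjusted p = 0.0541). In all, 14 members lay above WT cDC1 on both arrays, against 21.8% of all genes. Both calls, Snord53 and Scarna13, were close to the threshold and did not hold in every fit with 1 array left out. Calls were also lost when the array left out came from a group outside this comparison. Both members kept their direction each time. Of the markers, Tlr3 of the cDC1 list fell in Flt3L KO cDC1, and the summed macrophage list read 699 to 782 on Flt3L KO cDC1 arrays against 743 to 757 on WT cDC1 arrays.

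Averaged over both cell types, 6 members (11.8%) fell and 2 (3.92%) rose without the ligand, against 1.33% and 1.67% of all genes. Snord15b (−0.56 ± 0.06, adjusted p = 0.000538), Snord82, Snora33, Snora52, Snora31 and Scarna17 fell, and Snord53 (0.63 ± 0.09, adjusted p = 0.00344) and Scarna13 rose. Snora31, in the gene of the translationally controlled protein Tpt1, read 290 and 264 on Flt3L KO cDC1 arrays and 448 and 451 on Flt3L KO cDC2 arrays, against 308 and 345 on WT cDC1 arrays and 583 and 528 on WT cDC2 arrays, below WT in each cell type (−0.27 ± 0.06, adjusted p = 0.0327). Leaving out 1 array gave 2 calls without WT cDC2 replicate 1 or 2, Flt3L KO cDC1 replicate 1, or Flt3L KO cDC2 replicate 1 or 2. It gave 3 calls without Flt3L KO cDC1 replicate 2 and 4 without either Flt3 KO cDC2 array.

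Whether the ligand knockout acted differently in cDC2 and cDC1 was tested as the difference between the effects, cDC2 minus cDC1. It was below 0 and called for 4 box C/D members (7.84% of the members, against 0.247% of all genes) and above 0 for 0 members. The effect on Snord73b was −0.77 in cDC2 and 0.81 in cDC1, a difference of −1.58 ± 0.26 (adjusted p = 0.0208). On Snord61 it was −0.82 in cDC2 and 0.12 in cDC1, a difference of −0.95 ± 0.19 (adjusted p = 0.0479). On Snord49b it was −0.42 in cDC2 and 0.32 in cDC1, a difference of −0.74 ± 0.14 (adjusted p = 0.0436), and on Snord15b −0.90 in cDC2 and −0.23 in cDC1, a difference of −0.68 ± 0.12 (adjusted p = 0.0352). Of the 8 single effects, those on Snord15b and Snord61 in cDC2 passed the test; the others had adjusted p-values of 0.0526 to 0.676, so the sign of those effects is a fitted value and no call. The median difference of effects was −0.53 over box C/D and −0.26 over H/ACA members, against 0.03 over all genes. The count was 12 without WT cDC1 replicate 2. It was 0 without WT cDC2 replicate 2, Flt3L KO cDC1 replicate 1 or Flt3L KO cDC2 replicate 2, and 1 without WT cDC2 replicate 1, Flt3L KO cDC2 replicate 1 or any Flt3 KO array.

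Without the receptor no member was called. In Flt3 KO cDC1 compared with WT cDC1, limma called 0 members and 0.0803% of all genes, and 8 members (15.7%) had an unadjusted p under 0.05, against 12.5% of all genes. In Flt3 KO cDC2 compared with WT cDC2 it called 0 members and 0.107% of all genes, and 10 members (19.6%) had an unadjusted p under 0.05, against 7.28% of all genes. Averaged over both cell types it called 0 members and 0.254% of all genes, with 13 members (25.5%) at an unadjusted p under 0.05, against 10.2% of all genes. The difference between the receptor effects in cDC2 and cDC1 was called for 0 members and 0% of all genes, with 5 members (9.80%) at an unadjusted p under 0.05, against 8.97% of all genes. These comparisons share their WT arrays with those of the ligand knockout.

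The members with the smallest p in Flt3 KO cDC1 were Snord22, Snord49b, Snord73a and Snord73b. Snord22, an RNA of the noncoding host Snhg1 known in Xenopus for a part in small-subunit ribosomal RNA maturation, read 206 and 190 on Flt3 KO cDC1 arrays against 134 and 159 on WT cDC1 arrays (0.44 ± 0.10, adjusted p = 0.175). Snord73b read 60.4 and 64.9 on Flt3 KO cDC1 arrays against 35.9 and 49.6 on WT cDC1 arrays (adjusted p = 0.286). The box C/D median was 0.20 and 13 members lay above WT on both arrays, against 20.4% of all genes. This median rested on WT cDC1 replicate 1: it was −0.02 without that array and 0.41 without WT cDC1 replicate 2, when 10 members were called. The average over cell types gave 5 calls, and the difference of effects 2, without WT cDC1 replicate 2. Of the markers, Cd209a of the cDC2 list rose in Flt3 KO cDC1.

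In Flt3 KO cDC2, Snord15a read 57.0 and 59.7 against 84.7 and 73.6 on WT cDC2 arrays (−0.44 ± 0.10, adjusted p = 0.23). Snord87, of Snhg6, read 61.4 and 69.9 on Flt3 KO cDC2 arrays against 48.4 and 49.9 on WT cDC2 arrays (0.41 ± 0.15, adjusted p = 0.525). Snord82 read 87.8 and 95.1 on Flt3 KO cDC2 arrays against 122 and 156 on WT cDC2 arrays, lower without overlap (adjusted p = 0.529), and Snord47 read 346 and 320 there against 296 and 315 on WT cDC2 arrays. The medians were −0.01 over box C/D and 0.12 over H/ACA members. In all, 18 members had both Flt3 KO cDC2 arrays above both WT cDC2 arrays, against 22.5% of all genes. Among these were 7 box C/D and 10 H/ACA members. Another 8 members had both arrays below, against 16.9% of all genes. Macrophage markers also moved here: C1qa and Vcam1 of the 8 rose, and their summed intensity was 1040 to 1178 on Flt3 KO cDC2 arrays against 722 to 753 on WT cDC2 arrays.

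**Figure D4:**
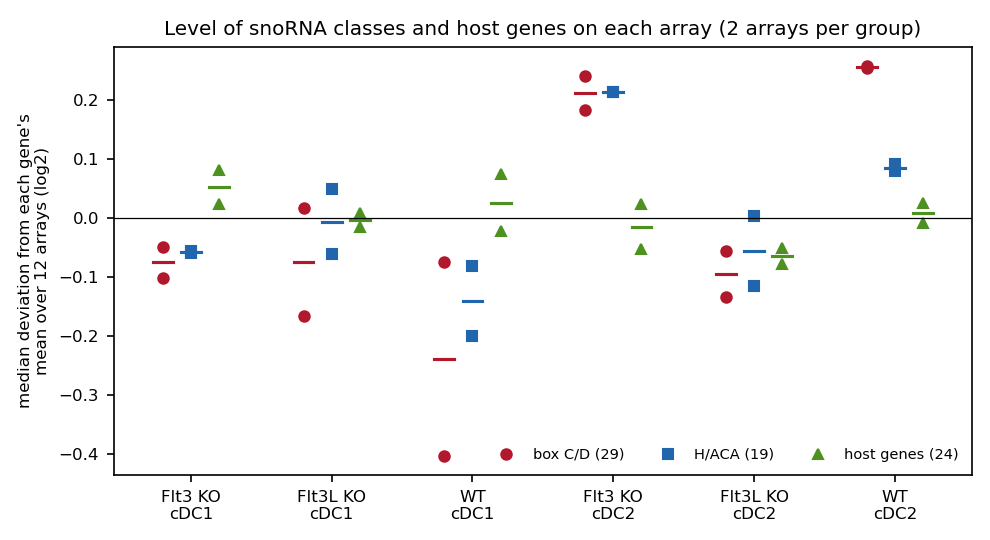
Median deviation of box C/D members (29, red), H/ACA members (19, blue) and their tested host genes (24, green) from each gene's mean over the 12 arrays, in log2; points are arrays and lines the mean of 2. Box C/D members are highest on the WT cDC2 (0.25 and 0.26) and Flt3 KO cDC2 arrays (0.18 and 0.24), lie at −0.06 and −0.14 on the Flt3L KO cDC2 arrays, and are lowest on WT cDC1 replicate 1 (−0.40).

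The plot of class levels by array also shows the difference between the cell types. Members were mostly lower in cDC1 than in cDC2 in WT and in Flt3 KO mice. In WT cDC1 compared with WT cDC2, 25 members (49.0%) fell and 2 (3.92%) rose, against 18.4% and 21.0% of all genes. In Flt3 KO cDC1 compared with Flt3 KO cDC2, 22 (43.1%) fell and 2 rose, against 16.4% and 19.1%. In Flt3L KO cDC1 compared with Flt3L KO cDC2, 6 (11.8%) fell and 7 (13.7%) rose, against 15.9% and 18.9%, so that both shares lay below those of all genes. The box C/D medians were −0.27 in Flt3 KO, 0.01 in Flt3L KO and −0.52 in WT, and the H/ACA medians −0.27, −0.07 and −0.16 in the same order. The test of Flt3L KO against WT for this cell type difference is the same as that of the difference between the ligand effects given above.

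**Figure D5:**
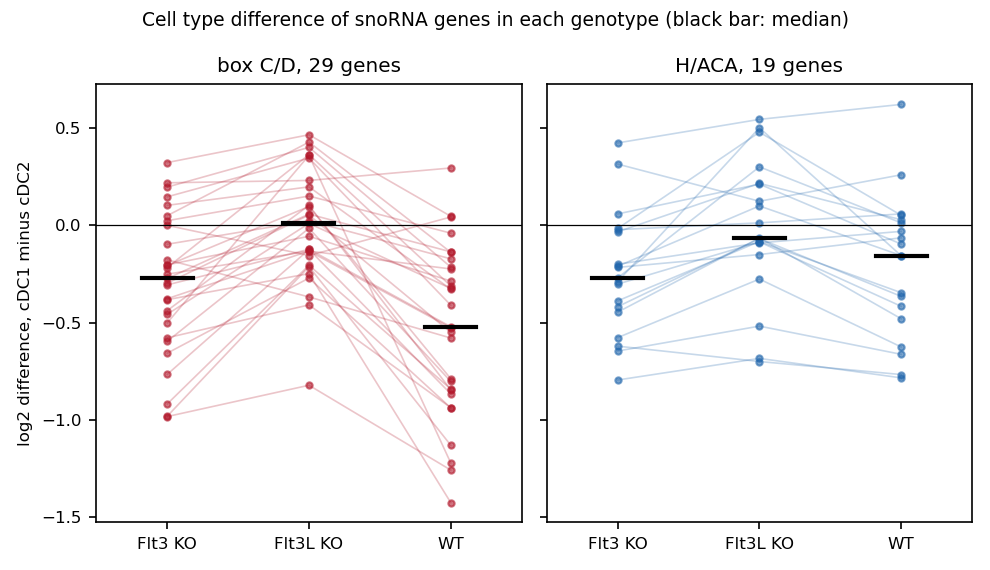
Fitted log2 difference, cDC1 minus cDC2, of each tested box C/D gene (left) and H/ACA gene (right) in Flt3 KO, Flt3L KO and WT mice; thin lines join the points of a gene and the black bar is the median. Box C/D medians lie at −0.27, 0.01 and −0.52 and H/ACA medians at −0.27, −0.07 and −0.16.

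Leaving out 1 array moved the WT count of 27 calls to between 21 and 29. The box C/D median in WT was −0.40 without WT cDC1 replicate 1 and −0.65 without WT cDC1 replicate 2, and the H/ACA median −0.25 and −0.09. In Flt3 KO mice the 24 calls became 14 without Flt3 KO cDC1 replicate 1, and in Flt3L KO mice the 13 calls became 7 without Flt3L KO cDC1 replicate 1. Among markers of other cells, 2 of 4 monocyte genes with a value fell in WT cDC1 (summed intensity 363 to 377 against 1703 to 1721 on WT cDC2 arrays), and of 8 macrophage genes 2 rose and 4 fell (743 to 757 against 722 to 753); their part in the snoRNA difference was not tested.

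Averaged over genotypes, 24 members (47.1%) were lower and 7 (13.7%) higher in cDC1 than in cDC2, against 23.5% and 28.1% of all genes. Snord22 differed most. It read 206 and 190 on Flt3 KO, 172 and 146 on Flt3L KO and 134 and 159 on WT cDC1 arrays, against 406 and 378 on Flt3 KO, 278 and 280 on Flt3L KO and 345 and 355 on WT cDC2 arrays (−1.02 ± 0.06, adjusted p = 6.34e-09, 2.03-fold lower). All 6 cDC1 arrays lay below all 6 cDC2 arrays.

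Snora31 (−0.70 ± 0.05, adjusted p = 4.94e-08) and Snora70, in the gene of the ribosomal protein Rpl10 (−0.75 ± 0.06, adjusted p = 2.49e-07), showed the same separation of all arrays. Snora70 read 210 to 276 on the 6 cDC1 arrays, with a lowest value in Flt3L KO, against 379 to 481 on the 6 cDC2 arrays. Snord47 (−0.77 ± 0.08, adjusted p = 1.79e-06) and Snord82 (−0.69 ± 0.12, adjusted p = 0.000395) also fell on average, but in Flt3L KO mice they read 172 and 154 and 52.1 and 44.7 on cDC1 arrays, against 190 and 186 and 63.5 and 51.7 on cDC2 arrays. Their cell type difference in that genotype was −0.21 and −0.25, against −1.13 and −1.43 in WT.

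The members higher in cDC1 were led by Snora41, in the gene of the elongation factor Eef1b2. It read 120 to 134 on the 6 cDC1 arrays against 79.5 to 99.1 on the 6 cDC2 arrays (0.53 ± 0.05, adjusted p = 1.02e-06), without overlap. Snord38a (0.28 ± 0.08), Snord53 in Wdr43 (0.25 ± 0.07), Scarna8 in Haus6 (0.24 ± 0.07) and Snora23 in Ipo7 (0.23 ± 0.06) also rose, each by 1.18-fold to 1.21-fold. Snora23, the brightest H/ACA member, read 908 to 1015 on cDC1 arrays against 722 to 982 on cDC2 arrays, where the highest cDC2 value came from Flt3L KO.

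Of the 19 members called in this average that had a tested host, 11 had a host that was not called, 5 a host called in the same direction and 3 a host called in the opposite direction. Over all 24 tested hosts 50.0% were called, near the 51.6% of all genes, so these counts say little about member and host. Eef1b2, the host of Snora41, rose by 0.96 ± 0.04 (adjusted p = 5.06e-10), Haus6 by 0.45 ± 0.08 and Wdr43 by 0.25 ± 0.05, each with its snoRNA. Rpl10 rose by 0.15 ± 0.04 where its Snora70 fell, Eef2 rose by 0.18 ± 0.04 where its Snord37 fell (−0.62 ± 0.13), and Ipo7 fell where its Snora23 rose. Tpt1 differed by −0.02 ± 0.04, Gas5 by −0.02 ± 0.04 and Ncl by 0.01 ± 0.06, none of them called.

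Members that share a host did not always move alike. In the cell type average Snord49a and Snord49b of 2410006H16Rik differed by −0.66 and −0.58, Snord73a and Snord73b of Rps3a1 by −0.38 and −0.45, and Snora75 and Snord82 of Ncl by −0.61 and −0.69. Snord95 and Snord96a of Rack1 differed by −0.35 and −0.08. Snord42a and Snord42b of Rpl23a differed by 0.03 and 0.13, and in Flt3L KO cDC2 minus WT cDC2 by −0.64 and −0.60, with an SE of 0.26 and 0.21, so that neither passed there. Members of a host share its transcript and are not independent of each other.

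The RNAs that act in cutting the ribosomal RNA precursor were Snord14e, Snord22, Snora73a and Snora73b; Snord118, which serves the large subunit in Xenopus, read 17.2 to 22.4 over all arrays and lay under the filter. Snora73a and Snora73b, relatives of a yeast RNA needed for the small subunit, lie in Snhg3. Snora73b read 232 to 265 on the 6 cDC1 arrays against 272 to 319 on the 6 cDC2 arrays, without overlap, and in Flt3L KO cDC2 it read 274 and 272, below 319 and 318 on WT cDC2 arrays (−0.22 ± 0.08). Snora73a read 127 to 167 on cDC1 arrays against 167 to 197 on cDC2 arrays. In the cell type average the pair differed by −0.27 and −0.27 log2. No snoRNA gene of the imprinted clusters had a value from a probe set with 1 symbol.

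The proteins of the particle were tested from lists of known components. None of the 4 box C/D core genes, the 4 H/ACA core genes or the 14 tested assembly and Cajal body genes was called in Flt3L KO or Flt3 KO cells compared with WT, in either cell type or on average (limma). Of all genes, 0.0803% to 1.95% were called within a cell type and 0.254% in the Flt3 KO average. In the Flt3L KO average 1.33% fell and 1.67% rose. At such shares, 0 calls among so few genes says little. An unadjusted p under 0.05 was reached by 0 of the 4 box C/D core genes in each of these comparisons, by up to 1 of the H/ACA core and by up to 6 of the assembly genes. Those 6 (42.9%) were in the Flt3L KO average, where 17.3% of all genes reached it. In the average of cDC1 minus cDC2 all 4 H/ACA core genes rose, where 28.1% of all genes rose and 23.5% fell; of the 19 H/ACA RNAs 3 rose and 8 fell. Dkc1, the gene of dyskerin, rose by 0.92 ± 0.08 (adjusted p = 3.82e-07), Nhp2 by 0.47 ± 0.05, Gar1 by 0.45 ± 0.05 and Nop10 by 0.19 ± 0.05. Of the box C/D core, Fbl, the gene of fibrillarin, rose by 0.50 ± 0.04 (adjusted p = 2.39e-07) and Snu13 fell by 0.28 on the log2 scale, while Nop56 and Nop58 were not called.

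Against the same shares of all genes, 6 of the 14 assembly and Cajal body genes rose (42.9%) and 3 fell (21.4%) in cDC1. Ruvbl1 and Ruvbl2, ATPases of the assembly machinery, rose by 1.04 ± 0.05 and 0.36 ± 0.05, and the assembly factors Nufip1 (−0.32 ± 0.05) and Znhit3 (−0.35 ± 0.06) fell. Of 36 genes of ribosomal RNA synthesis and processing 19 rose (52.8%) and 3 fell (8.33%), among them Nop2, Nob1 and Polr1a, which rose, and Myc, the growth transcription factor, which fell by 1.14 on the log2 scale. In the knockouts this list had 1 call each (2.78%) in Flt3 KO cDC1, the Flt3 KO average and the Flt3L KO average. Of all genes, 0.0803% were called in Flt3 KO cDC1 and 0.254% in the Flt3 KO average. Polr1d, which belongs to the polymerase that copies ribosomal RNA genes, fell in Flt3 KO cDC1 (−0.65 ± 0.08) and in the Flt3 KO average. Myc fell in the Flt3L KO average (−0.37 ± 0.08), where 1.33% of all genes fell. At that share, 1 fall among 36 genes says little about the list. The median of the list in Flt3 KO cDC1 was 0.01, and the cause of the Polr1d fall was not tested. Of 7 tested noncoding host genes 0 were called in any knockout comparison, which says little for so few genes. Up to 4 had an unadjusted p under 0.05. Those 4 (57.1%) were found in Flt3L KO cDC1, against 17.1% of all genes, and in the Flt3L KO average, against 17.3%. All 7 lay above 0 in Flt3L KO cDC2 (median 0.15), where 39 of the 51 members lay below 0. All 7 also lay above 0 in Flt3 KO cDC2 (median 0.19), as did 5 of the 7 in cDC1 of each knockout. Between the cell types 3 of the 7 were called (42.9%, against 51.6% of all genes): Snhg15 (−0.68 ± 0.05) and Snhg5 (−0.15 ± 0.05) fell and Rian rose (0.21 ± 0.08) in cDC1.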

How the data were processed

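Intensities from 12 GeneChip arrays were read from the deposited value table, in which the values are on a linear intensity scale; RNA was amplified with a whole-transcript expression kit and labelled with biotin, per the labels' protocols. The background correction and normalization behind the deposited intensities are not given in the sources used here. Of 30177 probe sets, 21789 carried 1 symbol in the platform annotation; the probe set with the highest mean stood for its gene (19938 genes). Values were taken to log2 and the share of 0.25 of genes with the lowest mean was left out. limma (version 3.58.1, R 4.3.3; lmFit and eBayes) was fitted with 1 mean per group over all 12 arrays, and p-values were adjusted by Benjamini-Hochberg over 14953 genes. With 2 arrays per group, the precision is limited by their number. The fitting code was tested on simulated data.

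Members, gene lists and tests were chosen with earlier results of these data known. Genes named were the called members (up to 8 by p in each knockout comparison, and the 4 of smallest p where fewer than 4 were called), the 5 largest rises and falls of the cell type average and the 3 of smallest p per genotype, the 2 of smallest p for differences of effects, the members that act in precursor cutting and the imprinted clusters, and up to 4 called genes of each list. Snord49a, Snord15a, Snord49b, Snord57, Snord14e, Snord16a, Snora75, Snord37, Snord61 in the differences of effects and the other members of shared hosts were added after their values were seen. The host of a member is the annotated gene whose span holds it, on either strand; hosts and promoters come from RefSeq (GRCm38.p6). Snord47, Snord8 and Snord87 lay in 2 genes each, and the host was set to Gas5, Chd8 and Snhg6. Of the other marker lists (monocyte, B cell, T cell, plasmacytoid dendritic cell, erythroid, neutrophil, platelet, cell cycle) 0 genes were called in any knockout comparison within a cell type, where 0.0803% to 1.95% of all genes were called. The summed monocyte list still read 1985 to 2268 on Flt3L KO cDC2 and 2052 to 2234 on Flt3 KO cDC2 arrays, against 1703 to 1721 on WT cDC2 arrays. It also lay above WT cDC1 in cDC1 of both knockouts. Sums of the T cell, plasmacytoid dendritic cell, neutrophil and cell cycle lists lay above WT cDC2 in Flt3L KO cDC2. Their part was not tested. Alternatives were quantile normalization, no filter, a share of 0.5 of the genes left out, a trended robust prior, the mean of probe sets, replicate number as a block, only the groups compared, and each array left out.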

Additional observations from a re-analysis of the deposited data

Results flagged for a closer look

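For 4 box C/D genes the effect of the ligand knockout differed between the cell types by limma's test of the difference itself (effect in cDC2 minus effect in cDC1, 2 arrays per group, adjusted over all genes). The difference was −1.58 ± 0.26 for Snord73b (adjusted p = 0.0208), −0.68 ± 0.12 for Snord15b (adjusted p = 0.0352), −0.74 ± 0.14 for Snord49b (adjusted p = 0.0436) and −0.95 ± 0.19 for Snord61 (adjusted p = 0.0479). All 4 kept their sign under each of the 19 alternatives, but the calls did not hold: 2 of the 4 were called without WT cDC1 replicate 1, 2 with the replicate block, 2 with no filter and 0 with only the groups compared, and 0 to 4 with 1 array left out. The WT cDC1 replicates, which were the farthest apart, enter each of them. For Snord73b, WT cDC1 replicate 1 read 35.9, the lowest value of any array, against 49.6 on WT cDC1 replicate 2. Macrophage markers were higher in the cDC2 of this genotype; their part was not tested. With groups of 2 arrays, single outlying arrays could not be tested.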

How the results depend on the processing

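Over 123 results on named members and 2329 alternatives, 2081 kept their direction and side of the threshold, 232 lost the call, 16 gained it and 0 changed sign. The count of called members in Flt3L KO cDC2 was 1 to 14 with 1 array left out. For Flt3L KO cDC1 the count of 2 became 0 with no filter and with only the groups compared, 4 with a share of 0.5 of the genes left out, 6 with a trended robust prior and 1 with replicate number as a block; it was 0 to 7 with 1 array left out. The Flt3 KO average gave 1 call with a trended robust prior and 0 to 5 with 1 array left out, and Flt3 KO cDC1 gave 0 to 10. The ligand average of 8 became 5 with no filter, 5 with the replicate block and 4 with only the groups compared, and 2 to 9 with 1 array left out. The difference of ligand effects, 4 calls, became 2 with no filter, 2 with the replicate block, 0 with only the groups compared and 0 to 12 with 1 array left out; that of receptor effects gave 0 to 2. Counts between cell types with 1 array left out were 14 to 29 in Flt3 KO and 7 to 15 in Flt3L KO.

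With 1 array left out, box C/D medians ran from −0.016 to 0.41 in Flt3 KO cDC1, −0.05 to 0.28 in Flt3L KO cDC1, −0.65 to −0.40 for WT cDC1 minus WT cDC2, −0.35 to −0.065 for the difference of receptor effects and −0.64 to −0.34 for that of ligand effects. H/ACA medians ran from 0.005 to 0.15 in Flt3L KO cDC1, −0.25 to −0.089 for WT cDC1 minus WT cDC2, −0.065 to 0.078 for Flt3L KO cDC1 minus Flt3L KO cDC2 and −0.30 to −0.17 for the difference of ligand effects. With a share of 0.5 of the genes left out, the H/ACA median between cell types was −0.25 in WT and −0.21 on average. The cause of these changes was not tested.

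The labels do not say whether arrays of the same replicate number share mice. Correlations of the deviations of same-numbered arrays ran from −0.199 to 0.172 over 15 pairs of groups. Between cDC1 and cDC2 of a genotype they were 0.0885 in Flt3 KO, 0.146 in Flt3L KO and 0.159 in WT. Weak correlations cannot show that samples were unpaired. The replicate block fitted a single shift over all groups, so pairing within a genotype was not tested. Beyond the counts given, the replicate block moved no count of calls by over 1.5 times. Arrays give no depth, and the dim members near the filter, such as Snora20 and Snord58b, have the least room above background, which was not measured here.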

Other observations

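Besides the members, 41 probe sets carried several symbols with a snoRNA among them, of which 12 lay above the filter. They were not used for any gene. Their median log2 difference was −0.21 in Flt3L KO cDC2 minus WT cDC2, with both ligand knockout arrays below both WT arrays for 8 of the 12 (66.7%, against 21.4% of all genes), and −0.30 in WT cDC1 minus WT cDC2. In Flt3L KO cDC1 minus Flt3L KO cDC2 it was 0.02.

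MicroRNA genes, another class of short RNA read by the same arrays, were compared as values. The median over 139 of them was 0.03 in Flt3L KO cDC2 minus WT cDC2, −0.12 in Flt3 KO cDC1 minus WT cDC1 and 0.09 in WT cDC1 minus WT cDC2. Of the 139, 25 lay below WT cDC2 on both Flt3L KO cDC2 arrays and 36 above it, shares near the 21.4% and 27.2% of all genes. In Flt3 KO cDC1 the shares were not near those of all genes. There 53 lay below WT cDC1 on both arrays (38.1%, against 20.3% of all genes) and 6 above it (4.32%, against 20.4%).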
